A study of Mus musculus with 4 samples.

Results

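The 8 genes described here encode parts of glucocorticoid handling and of oxysterol handling in cultured adipose cells. They are Hsd11b1, Nr3c1, Fkbp5, Tsc22d3, Per1, Cyp7b1, Cyp1b1 and Ch25h, taken by symbol from the 32285 genes of the count tables. They were chosen with their measured levels in these libraries known, so the levels are a description and carry no test. The data are 4 single-cell libraries of droplet 3′ RNA sequencing (10x Genomics), 1 for each condition. De-differentiated fat (DFAT) cells are fibroblast-like cells that arise when mature adipocytes are held against the ceiling of a filled flask, and they were grown from inguinal white adipose tissue (iWAT_DFAT) and from epididymal white adipose tissue (eWAT_DFAT). Adipose stem and progenitor cells (ASPCs) are here the cultured cells of the stromal vascular fraction (SVF) of inguinal (iWAT_ASPC) and epididymal tissue (eWAT_ASPC), which the labels call SVF cells. The donors of all 4 cultures were C57BL/6J mice on chow diet, with no transgene given for them. The age of the mice and the number of animals pooled per culture are not given in the sources used here. The cells were trypsinised and sorted for exclusion of the dye 7-AAD. Dexamethasone, a synthetic glucocorticoid, is part of the differentiation medium in the Methods, while the labels say only that the cells were cultured.

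After the filter of 5000 to 75000 unique molecular identifiers (UMIs, tags that count RNA molecules), 200 to 7500 genes and under 10% mitochondrial UMIs per barcode, 7629 iWAT_DFAT, 6464 eWAT_DFAT, 7424 iWAT_ASPC and 6745 eWAT_ASPC cells were kept. They held between 183664704 and 199357348 UMIs per library, with medians of 22111 to 27617 UMIs per cell. Pairs of libraries shared 13 to 20 cell barcodes. Clusters named ASPC-like carried ASPC markers, a list with Pdgfra, Col1a1 and Dcn, and did not take the name of another cell type. They held 97.4% of iWAT_DFAT, 89.6% of eWAT_DFAT, 92.4% of iWAT_ASPC and 87.3% of eWAT_ASPC cells. Clusters under other names could carry ASPC markers too, such as 8 of the 10 in the adipocyte-like cells of iWAT_DFAT. The summed level of the 10 ASPC markers was 3319 counts per 1e+06 UMIs (CPM) in eWAT_DFAT and between 8325 and 9107 CPM in the other 3 libraries. The 10 adipocyte markers summed to 2637 CPM in eWAT_DFAT, 839.7 CPM in iWAT_DFAT, 626 CPM in eWAT_ASPC and 218 CPM in iWAT_ASPC, and 8, 3, 2 and 2 of them reached 5 CPM. Both sums lean on abundant genes. Col1a2 measured 902 CPM in eWAT_DFAT and 3137 CPM in iWAT_ASPC, and Fabp4 measured 2132 CPM in eWAT_DFAT. Pdgfra measured 95.2 CPM in eWAT_DFAT, 246 CPM in iWAT_DFAT, 84.5 CPM in iWAT_ASPC and 82.5 CPM in eWAT_ASPC. Since each condition is 1 library, the spread between repeat cultures is unknown. All intervals below are 95% intervals that cover counting error only, and no p-value is given.

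Glucocorticoids are steroid hormones that enter cells and bind the glucocorticoid receptor, which then moves to the nucleus and binds DNA. Adipose cells can make active glucocorticoid locally from its inactive 11-keto form, and glucocorticoids are known to promote the differentiation of preadipocytes. Oxysterols are hydroxylated forms of cholesterol that act as ligands of liver X receptors and of the chemotactic receptor GPR183. HSD11B1 is the reductase that regenerates active glucocorticoid, and NR3C1 is the receptor. FKBP5, TSC22D3 and PER1 are products of well-known receptor target genes: FKBP5 is a co-chaperone that lowers the affinity of the receptor for its ligand, TSC22D3 is the glucocorticoid-induced leucine zipper, and PER1 is a repressor of the circadian clock. CH25H makes 25-hydroxycholesterol, CYP7B1 is the 7-alpha-hydroxylase that acts on oxysterols, and CYP1B1 oxidises steroid hormones and many foreign compounds and is induced through the aryl hydrocarbon receptor.

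Promoter sequences are shown for 4 of the genes whose levels differed most between libraries or that carry a motif tied to their known regulation. The tables hold 9 promoters for 6 of the 8 genes. Nr3c1 and Cyp7b1 have none. Each sequence is the 250 bases before a RefSeq start site on assembly GRCm38.p6, written 5′ to 3′ on the strand of the gene, and capitals mark exact matches on either strand to the letters searched. The windows are chr19:34475149-34475398 for Ch25h (minus strand), chr11:69098699-69098948 for the first Per1 start (plus strand), chr17:79715062-79715311 for Cyp1b1 (minus strand) and chr1:193242361-193242610 for Hsd11b1 (minus strand).
Ch25h: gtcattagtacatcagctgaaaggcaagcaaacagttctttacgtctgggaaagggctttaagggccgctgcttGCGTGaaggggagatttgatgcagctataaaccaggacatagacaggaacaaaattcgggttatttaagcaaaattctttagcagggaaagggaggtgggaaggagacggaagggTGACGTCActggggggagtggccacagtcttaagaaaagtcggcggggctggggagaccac
Per1: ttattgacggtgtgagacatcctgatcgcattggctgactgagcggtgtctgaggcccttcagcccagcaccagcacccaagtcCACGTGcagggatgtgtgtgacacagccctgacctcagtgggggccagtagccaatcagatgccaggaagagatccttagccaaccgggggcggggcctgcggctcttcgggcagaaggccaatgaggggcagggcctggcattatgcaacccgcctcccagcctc
Cyp1b1: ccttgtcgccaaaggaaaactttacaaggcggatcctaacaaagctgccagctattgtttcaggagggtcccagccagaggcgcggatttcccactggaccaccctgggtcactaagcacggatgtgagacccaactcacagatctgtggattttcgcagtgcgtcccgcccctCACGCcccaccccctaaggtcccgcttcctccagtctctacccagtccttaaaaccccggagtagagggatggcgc
Hsd11b1: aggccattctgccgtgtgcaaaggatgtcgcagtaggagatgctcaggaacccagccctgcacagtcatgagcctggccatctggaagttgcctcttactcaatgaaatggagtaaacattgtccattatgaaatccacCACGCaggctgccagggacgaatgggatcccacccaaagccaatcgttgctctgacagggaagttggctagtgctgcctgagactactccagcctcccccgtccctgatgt

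In the Ch25h promoter the capitals are a full cyclic AMP response element, TGACGTCA, that begins 61 bases before the start site and occurs in 1.55% of all 32851 promoters of the same length, and an aryl hydrocarbon receptor core, GCGTG, at 176 bases. The first Per1 promoter holds an E-box, CACGTG, at 166 bases, a motif bound by circadian clock factors that is present in 6.02% of all promoters. The Fkbp5 promoter also holds an E-box, at 169 bases. The aryl hydrocarbon receptor core lies 76 bases before the start of Cyp1b1 and 111 bases before that of Hsd11b1, in both on the opposite strand, and 28.2% of all promoters have one. A second Per1 promoter has the core at 92 bases. Of the glucocorticoid response letters, the half-site AGAACA was found in 1 of 3 Tsc22d3 promoters, on the opposite strand at 185 bases, and 16.1% of all promoters have it. The full palindromic glucocorticoid response element was in none of the 9 promoters and in 3 of all 32851. No member promoter held the AP-1 letters TGANTCA, either of 2 forms of the NF-kB site, or the interferon-stimulated response element, which 6.75%, 0.140%, 0.0852% and 2.98% of all promoters hold. A match or its absence in these windows describes letters and not binding.

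**Figure D1:**
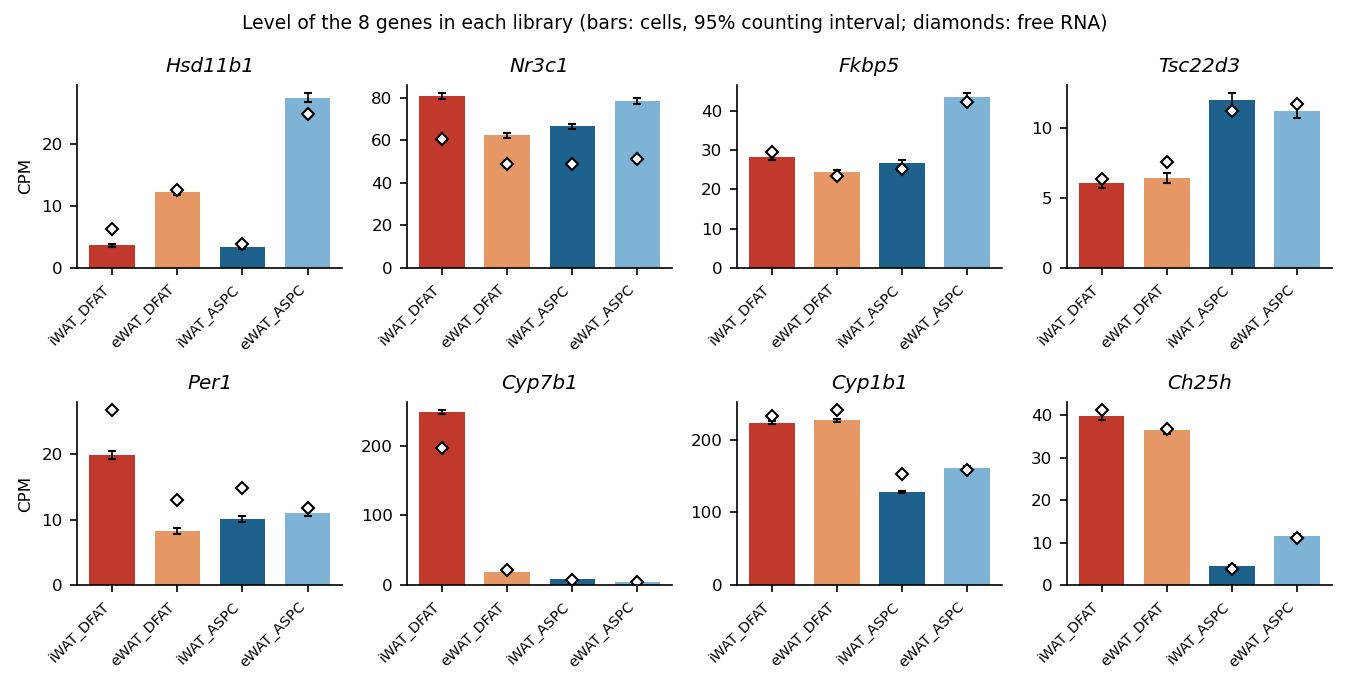
Level of each of the 8 genes in the 4 libraries, in CPM on linear axes that start at 0. Bars give the level over all cells of a library, error bars the 95% Poisson interval of its UMIs, and diamonds the level in droplets with 1 to 100 UMIs. Cyp7b1 stands at 248 CPM in iWAT_DFAT and at or under 19.1 CPM elsewhere, Ch25h is higher in both DFAT libraries, and Hsd11b1 is higher in both eWAT libraries.

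Hsd11b1 followed the depot. It measured 3.63 CPM in iWAT_DFAT, 12.3 CPM in eWAT_DFAT, 3.31 CPM in iWAT_ASPC and 27.5 CPM in eWAT_ASPC, from 660 to 5424 UMIs. Both epididymal libraries were above both inguinal ones, and the intervals of the inguinal libraries overlapped (3.36 to 3.92 against 3.06 to 3.57 CPM). The epididymal level was 8.29-fold the inguinal level in ASPCs (log2 ratio of iWAT to eWAT −3.05, interval −3.17 to −2.94) and 3.39-fold in DFAT cells (−1.76, −1.89 to −1.64). Within epididymal tissue DFAT cells were at a 2.23-fold lower level than ASPCs (log2 ratio −1.16, −1.23 to −1.09). Within inguinal tissue the log2 ratio was 0.13 with an interval of −0.02 to 0.29, and the gene was under 5 CPM in both libraries. The free RNA levels, from droplets with 1 to 100 UMIs, had the same order of libraries, at 6.21, 12.6, 3.78 and 24.8 CPM for iWAT_DFAT, eWAT_DFAT, iWAT_ASPC and eWAT_ASPC. The interval of iWAT_ASPC cells lay within that of free RNA (2.49 to 5.50 CPM) and the iWAT_DFAT level below it (4.53 to 8.31 CPM), and the 8.29-fold and 3.39-fold ratios rest on these low levels. The cells of eWAT_DFAT (free RNA 10.1 to 15.4 CPM) and eWAT_ASPC (21.3 to 28.7 CPM) also had intervals within those of free RNA. Such a match, here and for the genes below, compares the make-up of the RNA and not its amount. In iWAT_DFAT the free RNA droplets held 7246192 UMIs over 1622969 droplets, where the cells had a median of 22111 UMIs each. The share of a cell's UMIs that came from free RNA was not measured.

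The receptor gene Nr3c1 varied least in fold terms among the glucocorticoid genes. Its levels were 80.8 CPM in iWAT_DFAT, 62.3 CPM in eWAT_DFAT, 66.6 CPM in iWAT_ASPC and 78.5 CPM in eWAT_ASPC. The intervals of the 2 highest libraries, iWAT_DFAT and eWAT_ASPC, overlapped (79.5 to 82.1 and 77.2 to 79.7 CPM). DFAT cells were higher than ASPCs in inguinal tissue by a log2 ratio of 0.28 (0.24 to 0.31) and lower in epididymal tissue by one of −0.33 (−0.37 to −0.30). No comparison reached 2-fold. In free RNA the levels were 60.7, 48.9, 48.7 and 51.1 CPM, listed as above.

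Fkbp5 stood highest in eWAT_ASPC. It measured 28.3 CPM in iWAT_DFAT, 24.3 CPM in eWAT_DFAT, 26.7 CPM in iWAT_ASPC and 43.5 CPM in eWAT_ASPC. The 3 lower libraries lay within 1.17-fold of each other. The eWAT_ASPC level was 1.79-fold that of eWAT_DFAT (log2 ratio of DFAT to ASPC −0.84, −0.89 to −0.79) and 1.63-fold that of iWAT_ASPC. Free RNA held 29.5, 23.4, 25.1 and 42.1 CPM of Fkbp5, listed as above, and the interval of the cells lay within that of free RNA in every library. A gene annotated on the same strand within Fkbp5, AC154912.5, is in the count tables, so reads in the overlap cannot be assigned with certainty.

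Tsc22d3 was lower in both DFAT libraries. Its levels were 6.04 CPM in iWAT_DFAT, 6.42 CPM in eWAT_DFAT, 11.98 CPM in iWAT_ASPC and 11.2 CPM in eWAT_ASPC. The groups of DFAT and ASPC libraries did not overlap, and within each cell kind the intervals of the 2 depots did. The log2 ratio of DFAT cells to ASPCs was −0.99 (−1.09 to −0.89) in inguinal and −0.80 (−0.90 to −0.70) in epididymal tissue, folds of 1.98 and 1.74 that lie just short of the 2-fold limit. Free RNA held 6.35, 7.56, 11.2 and 11.7 CPM, listed as above, and the interval of the cells lay within that of free RNA in every library.

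Per1 stood apart in 1 library. It measured 19.9 CPM in iWAT_DFAT, 8.22 CPM in eWAT_DFAT, 10.0 CPM in iWAT_ASPC and 11.0 CPM in eWAT_ASPC. The iWAT_DFAT level was 2.42-fold that of eWAT_DFAT (log2 ratio 1.27, 1.19 to 1.36) and 1.98-fold that of iWAT_ASPC (0.98, 0.90 to 1.06). In epididymal tissue the ratio of DFAT cells to ASPCs had the opposite sign, at −0.42 (−0.51 to −0.32). Free RNA held 26.6, 13.0, 14.8 and 11.7 CPM of Per1, listed as above, which was higher than the cells in all but eWAT_ASPC, where the intervals overlapped. The 3 receptor targets therefore had 3 different orders: Fkbp5 was highest in eWAT_ASPC, Tsc22d3 in the 2 ASPC libraries and Per1 in iWAT_DFAT.

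Cyp7b1 showed the widest range of the 8 genes. It measured 248 CPM in iWAT_DFAT (245.7 to 250.3), 19.1 CPM in eWAT_DFAT (18.5 to 19.7), 9.13 CPM in iWAT_ASPC (8.72 to 9.56) and 4.65 CPM in eWAT_ASPC (4.35 to 4.96). The 4 intervals do not overlap. DFAT cells exceeded ASPCs 27.1-fold in inguinal tissue (log2 ratio 4.76, 4.70 to 4.83) and 4.11-fold in epididymal tissue (2.04, 1.93 to 2.14). Between the DFAT libraries the inguinal level was 13.0-fold the epididymal one (3.70, 3.65 to 3.75), and between the ASPC libraries it was 1.97-fold (0.97, 0.86 to 1.09). The last ratio passed the 2-fold limit without the clusters that carry cycling markers, at a log2 ratio of 1.45. In eWAT_ASPC the clusters left out include the one highest in Cyp7b1, whose cycling label depends on the clustering resolution. Free RNA held 196, 21.1, 7.00 and 4.37 CPM, listed as above. The intervals of cells and free RNA overlapped in eWAT_DFAT (free RNA 17.9 to 24.6 CPM), iWAT_ASPC (5.198 to 9.23 CPM) and eWAT_ASPC (2.97 to 6.20 CPM), which are the lower libraries of the 13.0-fold, 27.1-fold and 4.11-fold ratios.

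Ch25h was higher in DFAT cells of both depots. It measured 39.8 CPM in iWAT_DFAT, 36.5 CPM in eWAT_DFAT, 4.499 CPM in iWAT_ASPC and 11.5 CPM in eWAT_ASPC. The DFAT libraries lay 8.84-fold above the ASPC library in inguinal tissue (log2 ratio 3.14, 3.04 to 3.25) and 3.17-fold above it in epididymal tissue (1.67, 1.60 to 1.73). The 2 DFAT libraries differed by 1.09-fold, and in ASPCs the epididymal level was 2.56-fold the inguinal one (log2 ratio of iWAT to eWAT −1.35, −1.47 to −1.24). Ch25h is annotated as a single-exon gene of 1387 bases. A second gene, Gm26902, overlaps it, though no gene of the count tables does so on the same strand. Free RNA held 41.1, 36.7, 3.78 and 11.0 CPM of it, listed as above. The interval of the cells lay within that of free RNA in all 4 libraries, in iWAT_ASPC at 4.21 to 4.804 CPM against 2.49 to 5.50 CPM, and the 8.84-fold ratio rests on this low level. With free RNA subtracted at 5% of the UMIs, the inguinal log2 ratio was 3.13.

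Cyp1b1 was detected broadly. It measured 224 CPM in iWAT_DFAT, 227 CPM in eWAT_DFAT, 128 CPM in iWAT_ASPC and 162 CPM in eWAT_ASPC, and a UMI was found in 92.6%, 89.1%, 76.6% and 84.1% of their cells. The intervals of the 2 DFAT libraries overlapped, and both lay above both ASPC libraries. The log2 ratio of DFAT cells to ASPCs was 0.80 (0.78 to 0.82) in inguinal and 0.49 (0.47 to 0.51) in epididymal tissue, folds of 1.74 and 1.40 that stayed under 2.

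**Figure D2:**
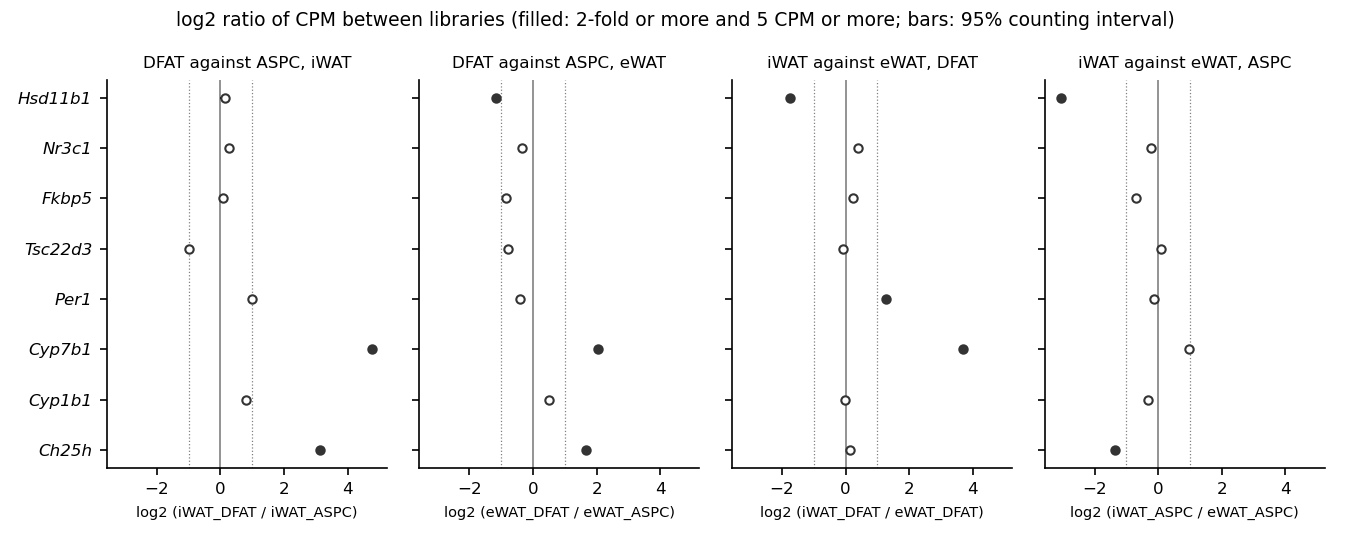
The log2 ratio of CPM for each of the 8 genes in the 4 comparisons, with 95% counting intervals mostly narrower than the points. Filled points are 2-fold or more apart with at least 5 CPM in the higher library, and dotted lines mark 2-fold. Cyp7b1 reaches 4.76 and Ch25h 3.14 in the inguinal comparison of DFAT cells with ASPCs, while Hsd11b1 reaches −3.05 between the ASPC libraries.

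A difference was called at 2-fold or more with at least 5 CPM in the higher library, and 10 of the 32 ratios met this limit. In inguinal tissue Cyp7b1 and Ch25h, 2 of the 7 members that reached 5 CPM, were higher in DFAT cells and none was lower, where 9.91% of 10426 genes were higher and 5.18% lower. In epididymal tissue Cyp7b1 and Ch25h were higher and Hsd11b1 was lower in DFAT cells, against 6.44% and 6.67% of 10298 genes. Between the DFAT libraries Per1 and Cyp7b1 were higher in inguinal tissue and Hsd11b1 was lower, where 8.29% and 3.95% of 10384 genes were called in these directions. Between the ASPC libraries Hsd11b1 and Ch25h were lower in inguinal tissue and no member was higher, where 3.94% of 10135 genes were lower and 2.94% higher. Nr3c1, Fkbp5, Tsc22d3 and Cyp1b1 met the limit in none of the 4 comparisons. The comparisons share libraries, and the members were chosen from these contrasts, so the counts are set beside the background without being read against it.

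The difference between DFAT cells and ASPCs was itself compared between depots, as the inguinal log2 ratio minus the epididymal one. Cyp7b1 had the widest gap, 2.72 (2.60 to 2.85), with DFAT cells higher in both depots. It was followed by Ch25h at 1.48 (1.36 to 1.60), Per1 at 1.40 (1.28 to 1.52) and Hsd11b1 at 1.29 (1.12 to 1.46). Fkbp5, at 0.92, and Nr3c1, at 0.61, lay between these and Cyp1b1, at 0.31 (0.28 to 0.34). Tsc22d3 alone of the 8 genes had a negative gap, −0.19 (−0.33 to −0.04), and was lower in DFAT cells of both depots. The intervals cover counting error, and without replicate libraries the gaps have no test.

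The libraries differed with gene length, which bears most on the longest members. Genes in the highest decile of gene length had a median log2 ratio of 0.34 between DFAT cells and ASPCs in inguinal tissue and 0.35 between the DFAT libraries, and those in the lowest decile −0.11 and −0.07. Cyp7b1, at 171389 bases, lies in the highest decile. Centred on genes of its own length, its log2 ratio was 4.42 between DFAT cells and ASPCs in inguinal tissue and 3.35 between the DFAT libraries. Ch25h lies in the lowest decile, and its inguinal ratio became 3.25. Among the members with small inguinal ratios, Nr3c1 went from 0.28 to 0.03, Hsd11b1 from 0.13 to −0.02 and Fkbp5 from 0.08 to −0.17, so the sign of the last 2 turned, and Tsc22d3 passed the 2-fold limit at −1.17. The file headers name Cell Ranger version 4 for iWAT_ASPC and 7.1.0 for the other 3 libraries, so it is not known whether reads in introns were counted alike in all 4, and the part of this in the ratios was not tested. Cyp7b1 has 2166 exonic bases, so most of its length is intron. Between iWAT_ASPC and eWAT_ASPC the highest decile had a median log2 ratio of 0.15.

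The share of cells with a UMI depends on depth, so each cell was also thinned to 5000 UMIs. Cyp7b1 then had a UMI in 47.0% of iWAT_DFAT, 7.44% of eWAT_DFAT, 4.23% of iWAT_ASPC and 2.52% of eWAT_ASPC cells, against 72.0%, 22.1%, 13.8% and 9.34% at full depth. Ch25h had one in 14.9%, 14.4%, 1.89% and 5.10%, against 38.9%, 44.8%, 8.32% and 19.6%. For Hsd11b1 the thinned shares were 1.74%, 5.11%, 1.54% and 9.99%, and at full depth 6.96%, 17.9%, 6.10% and 29.1%. The thinned shares gave the same order of libraries as the CPM for these 3 genes.

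Free RNA gives UMIs in cells that do not express a gene, and endothelial-like cells served as the comparison. There were 21 such cells in iWAT_DFAT, 141 in eWAT_DFAT, 56 in iWAT_ASPC and 132 in eWAT_ASPC, with median depths of 17280, 10664, 15911.5 and 14608.5 UMIs against 22111, 27425, 24930 and 27617 UMIs over all cells. After thinning, Cyp7b1 had a UMI in 19.0% of them in iWAT_DFAT, 1.42% in eWAT_DFAT and 0.758% in eWAT_ASPC. Each was lower than the share over all cells. In iWAT_DFAT the share was 19.0% at full depth too, so a few of the 21 cells held all 41 UMIs. These 21 cells are no blank for Cyp7b1. How they came by the UMIs was not tested, and no doublet caller was used. The shares in eWAT_DFAT and eWAT_ASPC lie under 2.13% and 2.27%, the shares that 3 of their cells would give. In iWAT_ASPC Cyp7b1 was found in none of 56, which allows a share of up to 5.36%, above the 4.23% over all cells. For Cyp1b1 the endothelial-like shares were 23.8%, 7.09%, 21.4% and 3.03%, against 60.2%, 57.0%, 40.0% and 48.5% over all cells. Ch25h stood at 4.76%, 12.1%, 10.7% and 3.03% in endothelial-like cells, and in iWAT_ASPC the share over all cells, 1.89%, was lower. Its level in the endothelial-like cells of iWAT_ASPC was 16.7 CPM (9.92 to 26.5), above the 3.78 CPM of free RNA, so these cells are no blank for Ch25h. Hsd11b1 had a UMI in 17.9% of endothelial-like cells of iWAT_ASPC and 19.7% of those of eWAT_ASPC, above the shares over all cells, and they are no blank for it either.

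**Figure D3:**
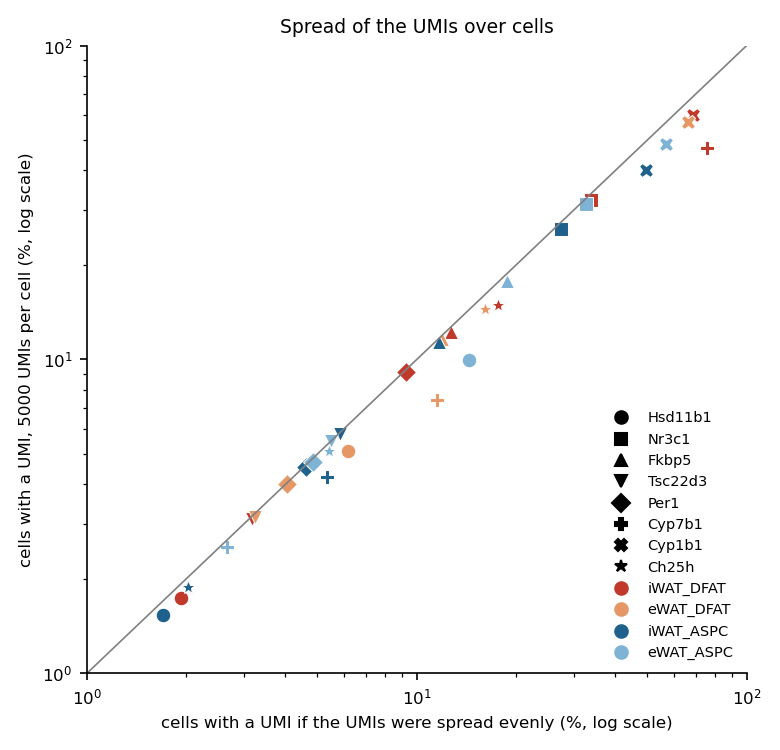
Share of cells with a UMI after thinning to 5000 UMIs (vertical axis, percent, log scale) against the share that an even spread of the same UMIs over cells would give (horizontal axis, percent, log scale), 1 point per gene and library. Points on the diagonal have the share that an even spread would give, and genes with few UMIs lie near it even where cells differ. Cyp7b1 in iWAT_DFAT lies far below the diagonal at 47.0% against 75.8%.

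Cyp7b1 had the highest variance of thinned counts relative to the mean of the 8 genes in both DFAT libraries, a measure that also grows with the level. In iWAT_DFAT an even spread would put a UMI in 75.8% of thinned cells, where 47.0% had one, and single cells held up to 188 UMIs at full depth. The variance of its thinned counts was 4.96 times the mean there, 3.71 times in eWAT_DFAT, 2.26 times in iWAT_ASPC and 1.12 times in eWAT_ASPC. Hsd11b1 was uneven in eWAT_ASPC, with a variance of 2.15 times the mean and 9.99% of cells against 14.4%. Tsc22d3 and Per1 had variances of 0.996 to 1.08 times the mean in all 4 libraries. Their thinned UMIs were found in at most 9.14% of cells, and with so few UMIs this value stays near 1 even where cells differ. Tsc22d3 ranged 4.65-fold over the ASPC-like clusters of iWAT_DFAT, with 25 UMIs in the highest. Nr3c1 and Fkbp5 reached at most 1.15 times.

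The cells were clustered within each library without the 8 genes, so the levels by cluster are not set by the genes themselves. In iWAT_DFAT, Cyp7b1 was concentrated in the largest cluster, 2863 cells led by Ifit3, Chl1, Serpina3n, Saa3 and Pi16, at 509 CPM (503 to 515). A second ASPC-like cluster of 1498 cells, led by Glyat and Nqo1, had 101 CPM, and the 2 clusters with cycling markers had 152 and 148 CPM. The adipocyte-like cluster of 160 cells had 285 CPM. The 10 interferon-induced genes summed to 418 CPM in the largest cluster and to 74.7 to 174 CPM in the other ASPC-like clusters, and the NF-kB target genes to 6517 CPM against 2311 to 5638 CPM. Over the whole library, Bst2 held the largest part of the first list at 85.5 CPM, and Ccl2 and Cxcl1 that of the second at 2816 and 1408 CPM. The part of either list in the level of Cyp7b1 was not tested.

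In eWAT_DFAT the cluster of 954 cells led by Csmd1, Serpina3g and Saa3 had 67.1 CPM of Cyp7b1, while the other ASPC-like clusters had 6.71 to 17.1 CPM. The NF-kB target genes summed to 7262 CPM there and to 3367 to 4681 CPM in the others, whereas the interferon-induced genes, at 187 CPM, lay within the 139 to 269 CPM of the others. Over all eWAT_DFAT cells, Bst2 measured 132 CPM and Ccl2 and Cxcl1 measured 3031 and 1059 CPM, so the sums rest mostly on these genes. The mesothelial-like cluster had 49.7 CPM of Cyp7b1 from 95 UMIs in 78 cells. In iWAT_ASPC the highest level was 20.6 CPM, in a cluster led by Robo2, Dkk2 and Ogn, and in eWAT_ASPC it was 11.7 CPM, in a cluster led by Chrdl1 that carried cycling markers. Every ASPC-like iWAT_DFAT cluster with more than 150 cells was above every cluster of the other 3 libraries. The 2 smallest ASPC-like clusters of iWAT_DFAT, with 123 and 51 cells, had 6.79 and 20.7 CPM.

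**Figure D4:**
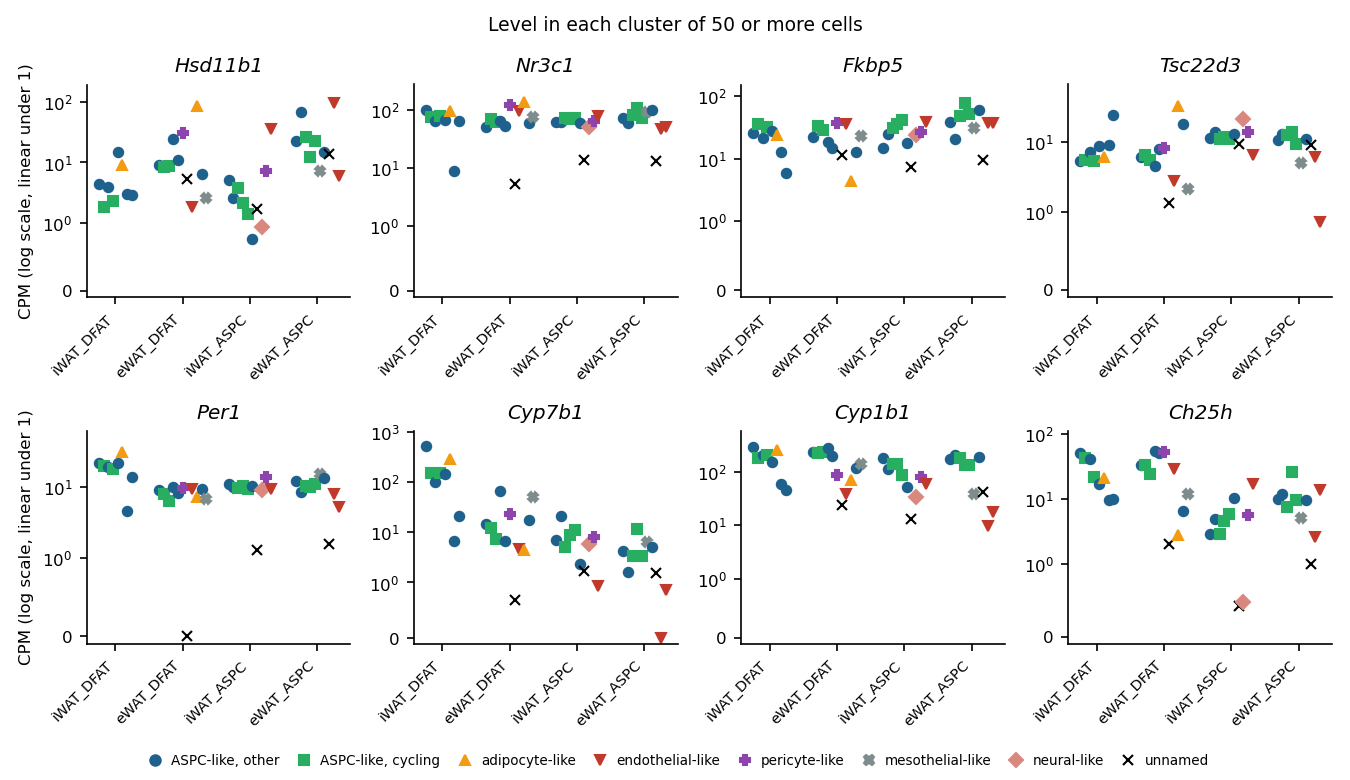
Level of each gene in every cluster of 50 or more cells, by library, in CPM on a log axis that is linear under 1. Blue circles and green squares are ASPC-like clusters without and with cycling markers, and the other symbols are the remaining cluster names. Cyp7b1 spreads from 6.79 CPM, with 9 UMIs in a cluster of low depth, to 509 CPM over the ASPC-like clusters of iWAT_DFAT. Per1 lies between 4.53 and 22.0 CPM over the same clusters. Over the ASPC-like clusters of iWAT_ASPC it lies between 9.44 and 11.1 CPM, without the unnamed low-depth cluster at 1.28 CPM.

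Ch25h was spread over more clusters than Cyp7b1. In iWAT_DFAT it measured 51.2 CPM in the largest cluster, 41.9 and 41.4 CPM in the next 2, and 22.0 CPM in the cluster led by Aspm and Cenpf. In eWAT_DFAT it was 54.8 CPM in the cluster with the highest Cyp7b1, 50.8 CPM in a cluster led by Acta1 and Tnfsf15 with a Cyp7b1 level of 6.71 CPM, and 52.4 CPM in pericyte-like cells. The eWAT_DFAT adipocyte-like cells had 2.77 CPM, from 5 UMIs. In eWAT_ASPC the cluster led by Chrdl1 had 25.8 CPM, and the other ASPC-like clusters had 7.44 to 11.7 CPM. Among iWAT_DFAT cells of the ASPC-like clusters without cycling markers, 413 of 4712 thinned cells (8.76%) had a UMI of both Ch25h and Cyp7b1, where the product of the 2 shares is 8.59%.

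Hsd11b1 was highest outside the main ASPC-like clusters in 3 libraries. The adipocyte-like cells of eWAT_DFAT, 95 cells, had 84.2 CPM (71.3 to 98.7), and pericyte-like cells of that library had 30.9 CPM. In eWAT_ASPC an endothelial-like cluster of 76 cells led by Nts, Stab1 and Prox1, of which Prox1 encodes a factor of lymphatic endothelium, had 96.4 CPM, while the other endothelial-like cluster had 6.07 CPM. Endothelial-like cells of iWAT_ASPC had 36.3 CPM. These groups held 6.65%, 4.90%, 2.14% and 5.91% of the Hsd11b1 UMIs of their libraries, the third value covering both endothelial-like clusters of eWAT_ASPC.

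Within the ASPC-like cells of eWAT_ASPC, Hsd11b1 was highest at 67.3 CPM (64.4 to 70.4) in the cluster of 1008 cells led by Ifit3, Ifit1, Mmp3 and Isg15, and lay between 12.2 and 26.5 CPM in the others. The interferon-induced genes summed to 536 CPM in that cluster and to 149 to 206 CPM in the other ASPC-like clusters, and the part of this in the Hsd11b1 level was not tested. The same cluster had the lowest Cyp7b1 level of the ASPC-like clusters of its library, 1.65 CPM, and the lowest Fkbp5 level, 21.02 CPM. In iWAT_DFAT the highest ASPC-like level of Hsd11b1 was 14.8 CPM, from 60 UMIs, in a cluster of 177 cells led by Fibin and Igfbp5.

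ASPC-like clusters with cycling markers were also set beside the other ASPC-like clusters. Fkbp5 was higher in them in all 4 libraries, at 34.4 against 23.8 CPM in iWAT_DFAT, 31.1 against 19.3 CPM in eWAT_DFAT, 35.3 against 18.8 CPM in iWAT_ASPC and 59.4 against 35.6 CPM in eWAT_ASPC. Hsd11b1 was lower in them in all 4 libraries when the clusters of each kind were summed. The levels were 2.03 against 4.65, 8.62 against 13.5, 2.68 against 3.54 and 20.3 against 33.8 CPM in the same order. In eWAT_ASPC this rests on the non-cycling cluster led by Ifit3 (67.3 CPM) and the cluster led by Chrdl1 (12.2 CPM). The other 2 cycling clusters had 26.5 and 22.4 CPM, and the other non-cycling clusters 22.8 and 14.8 CPM. In iWAT_ASPC the cycling clusters had 3.72, 2.13 and 1.43 CPM and the others 5.16, 2.56 and 0.763 CPM. The summed level of Cyp1b1 was lower in the cycling clusters as well, at 192 against 247 CPM in iWAT_DFAT and 231 against 240.2 CPM in eWAT_DFAT. Its levels in them were 126 against 138 CPM in iWAT_ASPC and 153 against 186 CPM in eWAT_ASPC. Per1 had values in them of 18.8 against 20.4, 7.22 against 9.01, 9.73 against 10.5 and 10.4 against 11.2 CPM, with intervals that overlapped in all libraries but eWAT_DFAT. Cyp7b1 was lower in the cycling clusters of 3 libraries, with 150.4 against 321 CPM in iWAT_DFAT, and at 6.26 against 3.61 CPM in eWAT_ASPC, where the cluster led by Chrdl1 had 11.7 CPM and the other 2 cycling clusters had 3.38 CPM each. At Leiden resolution 1 a cluster of 428 eWAT_ASPC cells led by Chrdl1 carried 0 cycling markers, so the cycling label of these cells depends on the resolution. Without the cycling clusters, the log2 ratio of Cyp7b1 between DFAT cells and ASPCs in epididymal tissue was 2.70, against 2.04 over all cells. The value of 2.70 leaves out the whole cluster led by Chrdl1. Nr3c1 was higher in them in 3 libraries and lower in iWAT_DFAT, at 77.8 against 82.5 CPM.

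Tsc22d3 was evenly present across the ASPC-like clusters of the ASPC libraries, at 9.51 to 14.0 CPM. In the DFAT libraries most ASPC-like clusters had 4.54 to 9.06 CPM, but 2 small ones stood higher, with 24.7 CPM in 51 cells of iWAT_DFAT and 18.3 CPM in 80 cells of eWAT_DFAT, from 25 and 31 UMIs. Adipocyte-like cells of eWAT_DFAT had 33.2 CPM, where Fkbp5 was at 4.43 CPM. Those of iWAT_DFAT had 6.13 CPM of Tsc22d3 and 23.7 CPM of Fkbp5. Per1 ranged 1.17-fold over the 6 ASPC-like clusters of iWAT_ASPC, 1.57-fold over the 6 of eWAT_DFAT and 1.62-fold over the 6 of eWAT_ASPC. In iWAT_DFAT, where its level was highest, it ranged 4.86-fold over 7 clusters, from 4.53 CPM, with 6 UMIs in the cluster of 123 cells, to 22.0 CPM in the largest cluster. That small cluster had a median of 8850 UMIs per cell, and the clusters of like depth in the ASPC libraries are unnamed and lie outside these ranges, with Per1 at 1.28 and 1.53 CPM. The other 6 ASPC-like clusters of iWAT_DFAT had 13.8 to 22.0 CPM.

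The direct partners of the 8 genes were followed by name. H6pd, which supplies the NADPH for HSD11B1, measured 56.1 CPM in iWAT_DFAT, 56.9 CPM in eWAT_DFAT, 33.0 CPM in iWAT_ASPC and 77.5 CPM in eWAT_ASPC, and its log2 ratio of iWAT to eWAT in ASPCs was −1.23. Hsd11b2, the enzyme that inactivates glucocorticoid, was at 0.0269 to 0.0953 CPM. Abcb1b, a drug and steroid exporter, was higher in DFAT cells, at 45.5 and 32.7 CPM against 14.7 and 13.2 CPM in ASPCs (log2 ratios 1.63 and 1.31). The mineralocorticoid receptor gene Nr3c2 stayed at 1.44 to 3.73 CPM. Fkbp4, the co-chaperone that favours hormone binding, measured 80.4, 86.0, 76.1 and 52.7 CPM in iWAT_DFAT, eWAT_DFAT, iWAT_ASPC and eWAT_ASPC, and stood lowest in the library where Fkbp5 stood highest.

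On the oxysterol side, Hsd3b7, which acts after CYP7B1 in bile acid synthesis, measured 5.55 CPM in iWAT_DFAT and 2.39 CPM in eWAT_DFAT, and 4.98 and 5.37 CPM in iWAT_ASPC and eWAT_ASPC. Cyp27a1, the sterol 27-hydroxylase, lay between 0.250 and 1.76 CPM, and Gpr183, the receptor for the product of CH25H and CYP7B1, between 0.114 and 0.263 CPM. The liver X receptor genes Nr1h2 and Nr1h3 measured 19.1 to 24.9 CPM and 1.62 to 5.06 CPM, without a 2-fold difference at 5 CPM or more. Ahr, the aryl hydrocarbon receptor gene, had 10.5, 9.63, 5.83 and 7.34 CPM in iWAT_DFAT, eWAT_DFAT, iWAT_ASPC and eWAT_ASPC. Its target Cyp1a1 had 0.593, 9.61, 0.0401 and 0.0506 CPM, and Nqo1, a detoxifying enzyme gene of the same list, had 151, 241, 46.3 and 32.7 CPM. Between the DFAT libraries the log2 ratio of iWAT to eWAT was −4.02 for Cyp1a1 and −0.02 for Cyp1b1.

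**Figure D5:**
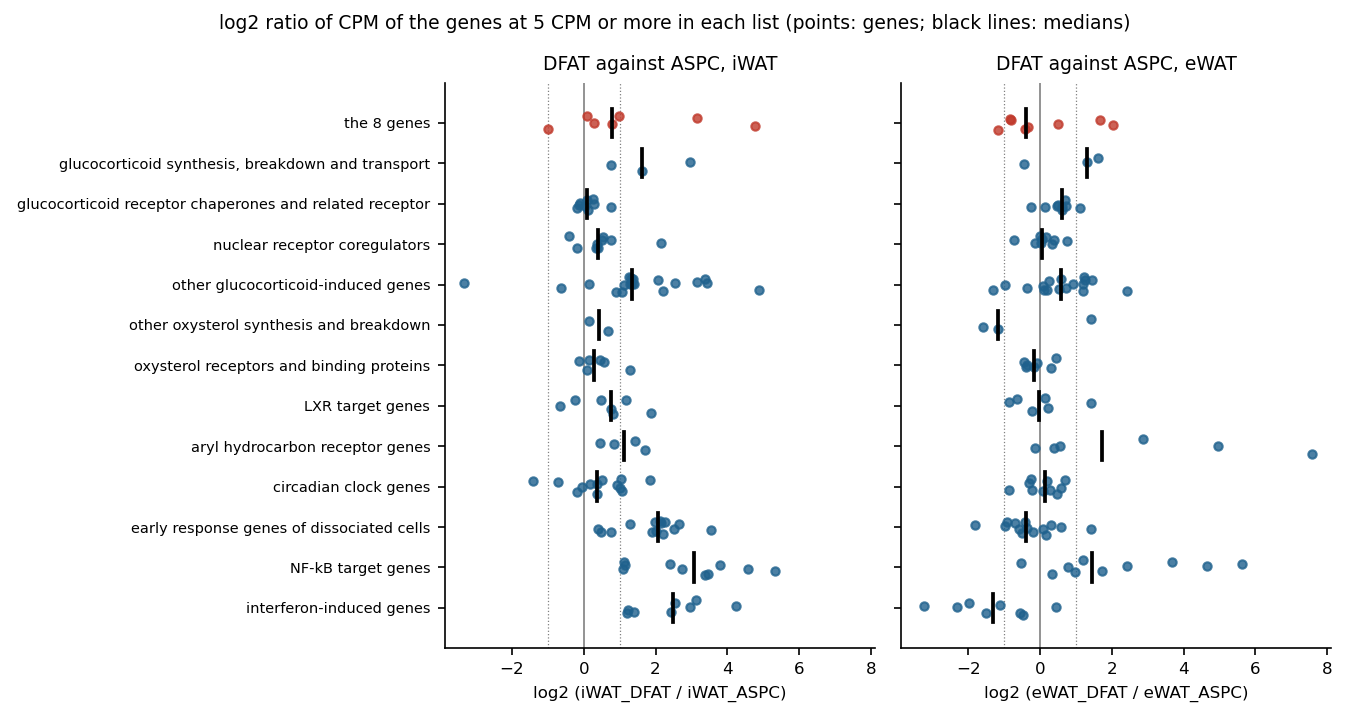
The log2 ratio of DFAT cells to ASPCs in inguinal (left) and epididymal tissue (right) for genes at 5 CPM or more in each list, with black lines at the medians and dotted lines at 2-fold. The median of the early response genes is 2.06 in inguinal and −0.39 in epididymal tissue, and the NF-kB target genes have medians of 3.06 and 1.46.

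Genes of the lists were counted by the same limit, and where 5 or fewer were called they are named, having been chosen after their values were seen. The lists were written with earlier results of these data known. Of 24 other glucocorticoid-induced genes, 19 reached 5 CPM in the inguinal comparison, and 15 of them were higher and 1, Cdkn1c, was lower in DFAT cells, with a median log2 ratio of 1.35 against 0.09 over all genes tested, of which 9.91% were higher and 5.18% lower. The shares over all genes given above for the other 3 comparisons stand beside the counts that follow. Nfkbia of this list is also counted among the NF-kB target genes, Dusp1 among the early response genes and Per2 among the clock genes. In epididymal tissue 6 of 17 were higher and 1, Cebpd, was lower, with a median of 0.58 against 0.07. Examples are Nfkbia, an inhibitor of NF-kB, at 464 and 226 CPM in the DFAT libraries of inguinal and epididymal tissue against 44.3 and 42.5 CPM in ASPCs, Mt2, a metallothionein gene, at 379.5 and 76.5 against 35.3 and 32.3 CPM, and Glul, the glutamine synthetase gene, at 75.6 and 29.1 against 8.54 and 12.5 CPM. Angptl4, an inhibitor of lipoprotein lipase, had 177 and 180.0 against 69.4 and 77.7 CPM. Tsc22d3 lay in the opposite direction from these 4 genes in both depots, and Fkbp5 had log2 ratios of 0.08 and −0.84. Between the DFAT libraries 13 of the 19 list genes were higher in inguinal tissue and 1, Anxa1, was lower. Between the ASPC libraries 1 of 17, Cdkn1c, was higher, with a median of −0.08.

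Of 9 chaperone and related receptor genes at 5 CPM, none was called in inguinal tissue, and Ppid, a cyclophilin gene found in receptor complexes, was higher in epididymal DFAT cells (log2 ratio 1.10). Of 9 coregulator genes only Nrip1, which encodes a corepressor, was called in inguinal tissue, higher in DFAT cells (log2 ratio 2.15), and none in epididymal tissue (Nrip1 0.74). Nrip1 was also higher in iWAT_DFAT than in eWAT_DFAT (1.72), and it measured 187, 56.5, 42.1 and 33.8 CPM in iWAT_DFAT, eWAT_DFAT, iWAT_ASPC and eWAT_ASPC. Of the liver X receptor target genes 2 of 7, Abca1 and Lpcat3, were higher in DFAT cells in inguinal tissue and 1 of 6, Arl4c, in epididymal tissue, and none was lower. Of the oxysterol receptor and binding genes 1 of 6, Rora, was higher in inguinal tissue and none of 7 was called in epididymal tissue. Of the other oxysterol enzyme genes, none of 2 was called in inguinal tissue, and of 3 in epididymal tissue Soat1 was higher and Cyp39a1 and Hsd3b7 were lower. Of the aryl hydrocarbon receptor genes Tiparp and Nqo1, 2 of 4, were higher in inguinal DFAT cells, and Ahrr, Cyp1a1 and Nqo1, 3 of 6, in epididymal DFAT cells. Of the genes of glucocorticoid synthesis, breakdown and transport, Abcb1a and Abcb1b, 2 of 3, were higher in inguinal and Abcb1b and Star, 2 of 3, in epididymal DFAT cells.

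Other programmes moved with the members, and their values stand beside them here. Per1 is a clock gene and also an early response gene. Of 13 circadian clock genes at 5 CPM, 5 (Per2, Per3, Cry2, Npas2 and Dbp) were higher in iWAT_DFAT than in eWAT_DFAT and 1, Bhlhe41, was lower. Per2 measured 12.7, 3.46, 6.07 and 4.11 CPM in iWAT_DFAT, eWAT_DFAT, iWAT_ASPC and eWAT_ASPC, the same highest and lowest libraries as Per1. The 14 early response genes of dissociated cells, such as Fos and Egr1, summed to 4208 CPM in iWAT_DFAT and to 1282, 1045 and 1423 CPM in eWAT_DFAT, iWAT_ASPC and eWAT_ASPC, and 10 of 14 were higher in iWAT_DFAT than in eWAT_DFAT. Their part in the Per1 level was not tested.

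Ch25h is known to be induced by interferon and by inflammatory signals. The 10 NF-kB target genes summed to 5407 CPM in iWAT_DFAT, 4660 CPM in eWAT_DFAT, 509.9 CPM in iWAT_ASPC and 352 CPM in eWAT_ASPC. All 10 were called higher in DFAT cells in inguinal tissue and 6 of 10 in epididymal tissue. The 10 interferon-induced genes summed to 229, 179, 61.6 and 234 CPM, with 8 of 8 at 5 CPM or more higher in inguinal DFAT cells and 5 of 8, Isg15, Ifit1, Ifit3, Oasl2 and Usp18, lower in epididymal DFAT cells. These sums lean on the most abundant genes. Bst2 alone measured 85.5 CPM in iWAT_DFAT and 132 CPM in eWAT_DFAT, while 7 of 8 genes of its list were higher in iWAT_DFAT than in eWAT_DFAT. Among the NF-kB target genes, Ccl2 and Cxcl1 measured 2816 and 1408 CPM in iWAT_DFAT and 3031 and 1059 CPM in eWAT_DFAT. Ch25h was higher in epididymal DFAT cells than in ASPCs, and the interferon-induced list had a median log2 ratio of −1.31 in that comparison. The part of either list in its level was not tested.

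The genes with the most similar pattern over the 4 libraries were found by the root mean square difference of log2 CPM, each centred on its own mean, among 6972 genes at 20 CPM or more. For Cyp7b1 they were Col23a1 (0.31), Ccl8 (0.37) and Serpina3g (0.46). Those for Ch25h were Pex11a (0.16), Xdh (0.20) and Tbx3 (0.20). For Hsd11b1 they were Smim41 (0.21), Aldh1a3 (0.27) and Pcolce2 (0.29). The nearest genes were Camkk2, Ogfr and Borcs7 for Nr3c1 (0.02 each), Spsb2, Ripor1 and Macf1 for Fkbp5 (0.03 to 0.06), and Sparc, Adamts12 and Emp3 for Tsc22d3 (0.04 to 0.07). They were Stat3, Nsg1 and Ifitm2 for Per1 (0.04 to 0.06) and Cyld, Kmt5a and Zfp385a for Cyp1b1 (0.04 to 0.05). With 4 libraries such likeness is a description of 4 values.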

How the data were processed

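The deposited files hold raw UMI counts per gene and barcode for 4 libraries, made by the authors with Cell Ranger (7.0.0 in the submitters' processing notes) with, per the Methods, intronic reads counted. The file headers name 7.1.0 for 3 libraries and 4 for iWAT_ASPC, and whether introns were counted alike in all 4 could not be settled. The study's later steps (CellBender, Seurat, DoubletFinder, Harmony) were not run here, and no doublet caller was used. Barcodes with 5000 to 75000 UMIs, 200 to 7500 genes and under 10% mitochondrial UMIs were kept. Counts were summed per library and scaled to counts per 1e+06 UMIs (CPM). With 1 library per group there was no replicate spread and no test was made, and exact Poisson, binomial and conditional binomial 95% intervals cover counting error only. Differences of ratios have intervals from a normal approximation on the log scale. The interval calculation was tested on simulated Poisson counts, a check that could not show the effect of UMIs clumped within cells. The intervals treat UMIs as independent, so for unevenly spread genes such as Cyp7b1 they are narrower than sampling of cells would give.

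Each library was clustered alone on 2000 variable genes without 140 genes of the lists (30 principal components, 20 neighbours, Leiden resolution 0.5). For names other than ASPC-like, a marker counted when found in 10% or more of a cluster's cells and 2-fold or more above the library's other cells. A cluster took the name when most markers of the list counted, so these names are relative to the rest of the library. Without such a name, ASPC-like asked for at least 3 markers found in 50% or more of cells. A cluster stayed unnamed where no rule was met. It also stayed unnamed where its median UMI count was under that of its library divided by 3 and its leading genes held none of the markers. The minimum of 3 cycling markers was set after the clusters were seen. Named genes were the 8 members, their direct partners, up to 4 genes per list at 20 CPM or more that differed by 2-fold or more in the same direction in both comparisons of DFAT cells with ASPCs or of depots, and the 3 genes nearest in pattern to each member. List genes outside this rule are named where 5 or fewer were called, and were chosen after their values were seen. The members and lists were chosen with earlier results of these data known. Alternatives changed the cell filter, the cells summed, free RNA, scaling, gene length, the call, thinning and the clustering. The scripts ran in Python 3.11.15 with pandas 2.3.3, scipy 1.17.1 and numpy 2.4.6. Clusters came from python-igraph 0.11.9 and scikit-learn 1.9.0, and plots from matplotlib 3.10.9.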

Additional observations from a re-analysis of the deposited data

Results flagged for a closer look

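Genes were singled out when the 2 depots, or the 2 cell kinds, moved in opposite directions under the same contrast, with both counting intervals clear of 0. The differences were not tested, since each condition has 1 library. For Nr3c1, the glucocorticoid receptor gene, the log2 ratio of DFAT cells to ASPCs was 0.28 in inguinal and −0.33 in epididymal tissue, a difference of 0.61 (0.56 to 0.66), and centring on genes of the same length took the inguinal ratio to 0.03. For Fkbp5 the ratios were 0.08 and −0.84, a difference of 0.92 (0.85 to 1.0001), and centring on genes of the same length turned the inguinal ratio to −0.17, so its directions then no longer opposed each other. For Per1 they were 0.98 and −0.42, a difference of 1.40 (1.28 to 1.52). The same 3 genes had opposite directions between depots in DFAT cells and in ASPCs, though with length centring the ratio between the DFAT libraries went from 0.22 to 0.02 for Fkbp5 and from 0.37 to 0.18 for Nr3c1. Ch25h was higher in iWAT_DFAT than in eWAT_DFAT by a log2 ratio of 0.12 and lower in iWAT_ASPC than in eWAT_ASPC, at −1.35, a difference of 1.48 (1.36 to 1.60), and scaling by the median of ratios took the first value to 0.04.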

How the results depend on the processing

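All 10 called ratios of the members kept their sign and stayed at 2-fold or more in each of the 10 alternatives of cell filter, cells summed, free RNA, scaling, gene length and single-cell averaging. Of 320 ratios under these alternatives, 248 stayed within the counting interval and 72 did not. Signs turned among uncalled ratios: centring on gene length turned the inguinal ratios of DFAT cells to ASPCs to −0.02 for Hsd11b1 and −0.17 for Fkbp5, and the ratio of Cyp1b1 between the DFAT libraries became 0.14 without cycling clusters and 0.08 as a mean of single-cell CPM. In inguinal tissue the count of members called between DFAT cells and ASPCs was 2, and it was 4 as a mean of single-cell CPM, where Tsc22d3 and Per1 passed the limit, and 5 at 1.5-fold. Tsc22d3 also passed it, giving 3, under median-of-ratios scaling (−1.07) and length centring (−1.17). Between the ASPC libraries Cyp7b1 passed it, giving 3 in place of 2, in ASPC-like clusters alone (1.01), without cycling clusters (1.45) and as a mean of single-cell CPM (1.08). At 1.5-fold it was 5 in place of 3 in epididymal tissue and 4 in place of 2 between the ASPC libraries, since the limit is lower. At a minimum of 20 CPM it was 2 in place of 3 in epididymal tissue, where Cyp7b1 dropped out, 1 in place of 3 between the DFAT libraries and 1 in place of 2 between the ASPC libraries, since genes under the minimum drop out. Over all genes 1573, 1350, 1271 and 697 were called in the 4 comparisons (inguinal, epididymal, DFAT, ASPC), against 2968, 2899, 2768 and 1489 at 1.5-fold, 2489, 2281, 2068 and 1380 at 1 CPM, and 973, 753, 732 and 355 at 20 CPM. The 64 shares of cells all changed when cells were thinned to 2500 UMIs or asked for 2 UMIs, and 9 of 32 levels by cell group left their interval at Leiden resolution 1. Depth limits Hsd11b1 in both inguinal libraries, Ch25h in iWAT_ASPC and Cyp7b1 in eWAT_ASPC, all under 5 CPM. No paired analysis was made, with 1 library per condition and no replicate numbers in the labels. For its comparison of adipogenic potential, the paper describes taking adipocytes and SVF cells side by side from the same depots. The DFAT and ASPC cultures sequenced here may therefore share donors, and the labels do not say whether they do.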

Other observations

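A small cluster in each DFAT library was led by Slc6a12, Akr1b3 and Prss35, genes among which Slc6a12 and Akr1b3 are known for the response to hypertonic stress. It held 51 cells in iWAT_DFAT and 80 in eWAT_DFAT. Tsc22d3 measured 24.7 CPM (16.0 to 36.4) and 18.3 CPM (12.4 to 26.0) in them, while the 14 early response genes summed to 7633 and 7509 CPM, the highest sums of any cluster of their libraries. Per1, which also belongs to early response programmes, was at 13.8 and 9.45 CPM there.

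The pericyte-like cells of eWAT_DFAT had the highest sum of the NF-kB target genes of any cluster, 12085 CPM, with Ch25h at 52.4 CPM and Hsd11b1 at 30.9 CPM. The endothelial-like cells of iWAT_ASPC and the 2 endothelial-like clusters of eWAT_ASPC summed to 1933 to 2281 CPM of these genes, against 256 to 578 CPM in the ASPC-like clusters of the ASPC libraries. Ch25h measured 16.7 CPM in the first and 2.65 and 13.9 CPM in the other 2.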
